A study of Mus musculus with 16 samples.

Results

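Ribosomal protein genes are the genes of the proteins that, with ribosomal RNA, build the cytosolic ribosome. They were taken from the deposited gene annotation as Ensembl protein-coding genes whose symbol begins with Rpl or Rps followed by a digit, or is Rplp0, Rplp1, Rplp2 or Rpsa, with the Rps6k kinase genes left out. The rule found 105 genes among 22159 Ensembl protein-coding genes and 50578 genes in all. The study compared mouse bone-marrow-derived macrophages, grown from marrow for 7 days with the growth factor M-CSF at 50 ng per ml, with and without the bacterial cell wall component lipopolysaccharide (LPS). RNA-seq had 3 LPS and 3 untreated samples and ribosome profiling 2 LPS and 2 untreated samples, labelled CHX, all from wild-type C57BL/6 cells. RiboTag had 2 untreated samples, 2 LPS samples of 6 h and 2 LPS samples of 24 h, with RNA from ribosomes pulled down by an antibody to the HA epitope. All RiboTag cells, the untreated ones too, have the genotype LysM-Cre x RiboTag. The labels give neither the LPS time of the other assays nor the animals behind each sample. Levels in the libraries were not analysed here. Nothing is therefore said of the response to LPS, macrophage markers were not checked, and depth is unknown. The values below are properties of the gene models in build mm10, with no replicates and no test.

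The large 60S subunit forms peptide bonds and the small 40S subunit reads the mRNA. Most mammalian ribosomal protein mRNAs begin with a C followed by an unbroken run of pyrimidines, the terminal oligopyrimidine (TOP) tract, through which their translation is controlled together by nutrient and growth signals. In RiboTag mice the terminal coding exon of Rpl22, a 60S protein, is flanked by recombination sites and followed by a copy that adds an HA epitope. Cre recombinase swaps the exons, and antibodies to HA then recover ribosomes with their mRNAs. LysM-Cre drives the swap in cells that express the lysozyme gene Lyz2, mainly macrophages and neutrophils.

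The first bases of these mRNAs are shown because the TOP tract is defined there. Each window holds 15 bases before and 15 from the start base on, read on the gene's strand from RefSeq (GRCm38.p6), and capitals mark an unbroken pyrimidine run that begins with C exactly at the start base. RefSeq windows were found for 66 of the 105 genes, 57 of them plain subunit genes. The first 6 windows, at chr14:18270972-18271001 (minus strand), chr2:39005117-39005146 (minus), chr17:27635230-27635259 (minus), chr17:33955651-33955680 (minus), chr4:86857353-86857382 (minus) and chr7:141447636-141447665 (plus), have a run. They belong to 60S genes, 40S genes and the ribosomal stalk gene Rplp2.
Rpl15: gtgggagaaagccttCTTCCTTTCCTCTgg
Rpl35: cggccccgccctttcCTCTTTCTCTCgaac
Rps10: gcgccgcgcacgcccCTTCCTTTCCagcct
Rps18: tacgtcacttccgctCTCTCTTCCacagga
Rps6: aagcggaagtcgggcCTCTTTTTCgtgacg
Rplp2: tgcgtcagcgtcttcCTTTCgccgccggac
The next 5 windows have no run at the listed start. They are the 2 starts of Rpl22 at chr4:152324421-152324450 and chr4:152325711-152325740, its paralog Rpl22l1 at chr3:28805493-28805522, the stalk gene Rplp0 at chr5:115559452-115559481 and the 40S gene Rpsa at chr9:120127751-120127780, all on the plus strand. Both Rpl22 windows lie before the first annotated base of the gene, 152325742. Its annotated coding transcripts begin at 152325853, 152325867 and 152325869, outside these windows. The first bases of those transcripts were not examined, so whether they carry a run is unknown.
Rpl22, upstream start: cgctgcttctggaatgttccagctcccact
Rpl22, downstream start: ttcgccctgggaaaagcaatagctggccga
Rpl22l1: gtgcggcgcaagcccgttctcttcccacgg
Rplp0: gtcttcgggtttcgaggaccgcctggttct
Rpsa: gtgggttatttaaggacgtcatttccggcc

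A run of a C and at least 4 further pyrimidines stood exactly at a RefSeq start in 14 of the 66 genes with a window (21.2%), against 3.01% of the 27025 genes in the RefSeq promoter table. The longest was 13 bases in Rpl15, followed by 11 in Rpl35 and 10 in Rps10. Runs of 9 bases stood in Rps18 and in Rps6, the 40S protein phosphorylated by S6 kinases. Runs of 8 bases stood in Rpl28, Rpl35a, Rpl38 and Rps15a, and shorter ones in Rps27, Rpl14, Rps27rt, Rplp2 and Rps21. The count depended on where the start was placed. With a start up to 5 bases away it was 30 of 66 genes (45.5%), against 21.2% of the promoter table. Starts of coding transcripts in the deposited annotation fell in a RefSeq window in 62 genes and had a run in 8 (12.9%), against 2.85% of 14223 protein-coding genes handled alike. Of those 8 genes, 5 also had a run at a RefSeq start, so 17 genes had one at either. The share of all genes with a run at either start was not counted, so the 17 cannot be set against a background. The other 3 of the 8 were Rps9, Rps12 and Rps19, which is mutated in human Diamond-Blackfan anaemia.

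The choice of start can be seen in Rps19 and Rps10, and Rps27 is shown beside a copy of it. The Rps19 window at chr7:24884618-24884647 (plus strand) is that of the annotated transcript Rps19-004, and the one after it, at chr7:24884577-24884606, is 1 of 3 RefSeq starts of the same gene. The Rps10 window of the annotated transcript Rps10-002, at chr17:27635226-27635255 (minus), starts 4 bases inside the longer RefSeq run printed above. The last pair, both on the minus strand, are the RefSeq starts of the 40S gene Rps27 at chr3:90213634-90213663 and of its single-exon copy Rps27rt at chr9:114982725-114982754.
Rps19-004: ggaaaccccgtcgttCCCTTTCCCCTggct
Rps19, RefSeq: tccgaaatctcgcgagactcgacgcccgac
Rps10-002: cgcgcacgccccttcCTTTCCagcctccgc
Rps27: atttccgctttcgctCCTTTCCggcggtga
Rps27rt: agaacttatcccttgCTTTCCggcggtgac
In Rps19 the run was 11 bases long at the annotated start of Rps19-004 and absent at all 3 RefSeq starts. At other annotated starts of the gene it was 3 bases long (Rps19-001) or absent (Rps19-003 and Rps19-006). In Rps27 it was 7 bases long and in Rps27rt 6.

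Letters of known promoter elements were counted on both strands of the 300-base RefSeq windows, 250 bases of them before the start. CCGGAAG, the core bound by ETS family factors, was in 26 of 66 member genes (39.4%), against 9.93% of the promoter table. GGGCGG, the GC box bound by Sp1, was in 41 (62.1%), against 38.2%. AAGATGGCG, a core of the factor YY1, was in 4 (6.06%), against 1.64%. TATAAA, the TATA box, was in 7 (10.6%), against 15.7%. The letters are a description of the windows and not a measure of binding.

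The label of ribosomal protein genes held for most but not all members. Plain subunit names made up 77 of the 105, with 46 of the 60S and 31 of the 40S subunit, and every one is listed as protein-coding in the RefSeq gene table. A further 9 are paralogs, 18 carry pseudogene names, and Rps19bp1, with 4 exons and 143 codons on chromosome 15, is a binding protein of Rps19 and no ribosomal protein. The rule leaves out genes such as Fau, which encodes a ribosomal protein fused to a ubiquitin-like protein, and Rack1, a 40S scaffold listed here under its older symbol Gnb2l1. Rps27a, made as a fusion with ubiquitin, is a member. Members lay on 20 chromosomes, 55 on the plus and 50 on the minus strand.

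Rpl22, the RiboTag target, was placed on the plus strand of chromosome 4 at 152325742 to 152334071, a span of 8330 bases (ENSMUSG00000028936). It had 8 transcripts. In all 3 with a complete coding sequence, 4 exons encoded 128 codons. The exons held 12, 105, 125 and 142 coding bases, and the introns were 1585, 2418 and 2151 bases long. The terminal coding exon, the one exchanged in RiboTag mice, thus held 37.0% of the coding sequence. An exon beginning at its first base, 152332280, was in 5 of the 8 transcripts. The 5 other transcripts of the gene are annotated as processed transcripts with no coding sequence, and 2 of these, Rpl22-003 and Rpl22-006, contained that exon. The coding transcripts differed in their ends, with 3′ untranslated lengths of 1647 bases in Rpl22-002, 1646 in Rpl22-201 and 56 in Rpl22-001. Their 5′ untranslated lengths were 17, 15 and 31 bases. In Rpl22-002 the terminal exon was 1792 bases long, 87.4% of the spliced transcript. Rpl22 shared 0 exon bases with another gene on its own strand, lay under 0 exon bases of the opposite strand and held 0 small RNA genes.

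Rpl22l1, the paralog known to rise when Rpl22 is lost in mice, lay on the plus strand of chromosome 3 at 28805436 to 28807424, a span of 1989 bases. Its 9 transcripts included 2 protein-coding ones of 122 and 121 codons, 3 with a retained intron, 3 processed transcripts and 1 annotated for nonsense-mediated decay with 64 codons. Both genes had 4 coding exons and a short coding stretch in the first, 12 bases in Rpl22 and 9 in Rpl22l1. Their 3′ ends differed in length, with at most 1647 untranslated bases in Rpl22 and 93 in the coding transcripts of Rpl22l1. An antisense gene, Gm33051, lay over 159 exon bases of Rpl22l1.

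**Figure D1:**
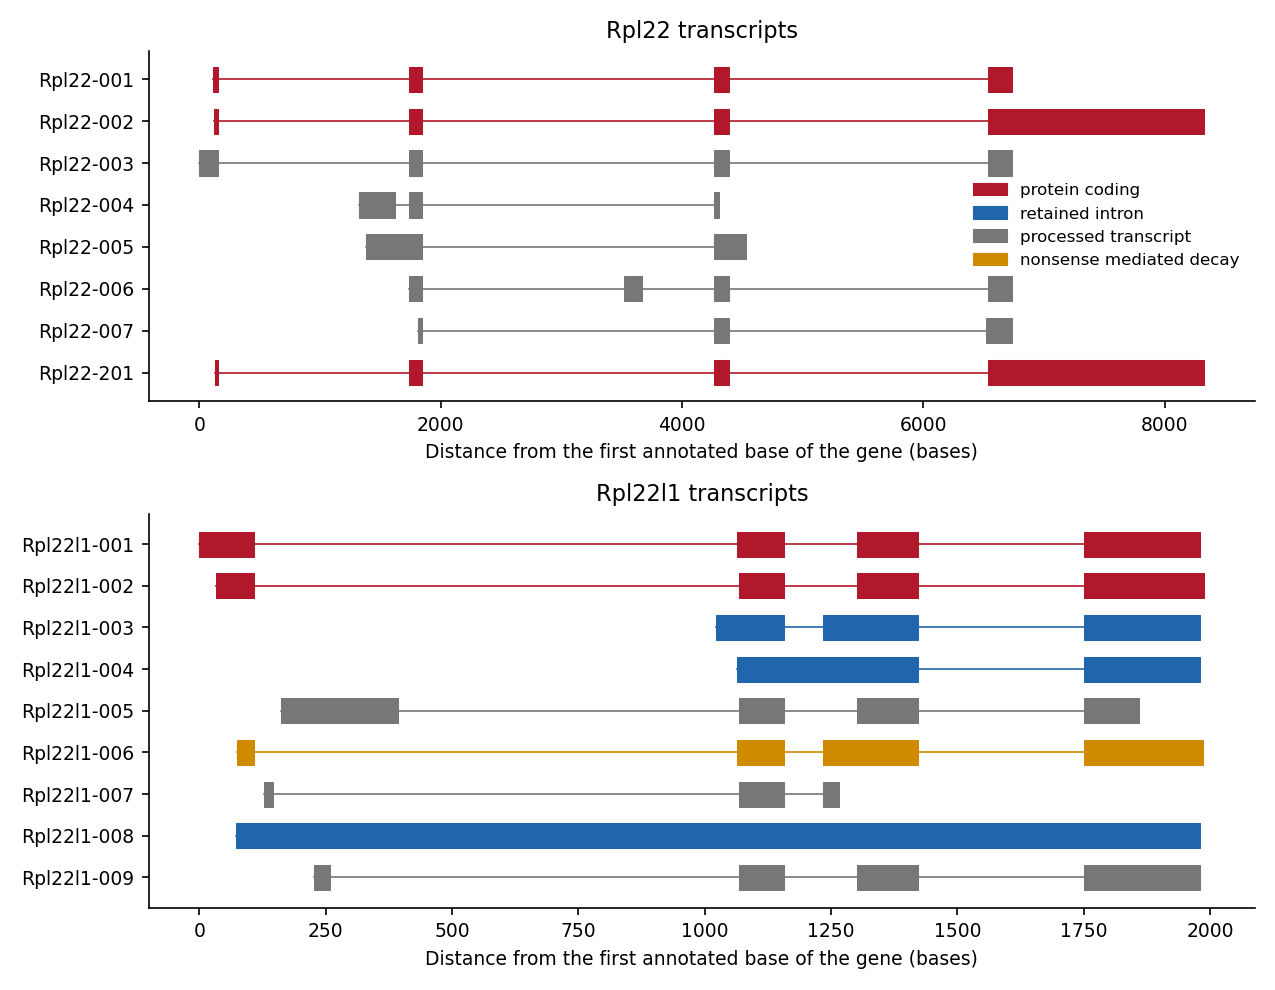
Annotated transcripts of Rpl22 (top) and Rpl22l1 (bottom). Boxes are exons, lines introns, colours the transcript biotype, and the horizontal axis gives bases from the first annotated base of each gene on its own scale. Of the 8 Rpl22 transcripts, 3 are protein-coding and share the start of the terminal exon, which is long in 2 of them and short in 1.

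The stalk and other members with known further roles varied in layout. The stalk genes recruit elongation factors. Rplp0, which anchors the stalk, had 7 exons and 317 codons, Rplp1 3 exons and 114 codons, and Rplp2 5 exons and 115 codons. Rpsa, also known as a laminin receptor, had 7 exons, 295 codons and 875 bases of 3′ untranslated sequence. Rps27a had 6 exons and 156 codons with the ubiquitin part. Rps3, which also takes part in DNA repair, had 7 exons, 243 codons and 1059 bases of 3′ untranslated sequence. Rps6 had 5 exons, 249 codons and 42 bases of 3′ untranslated sequence. Rpl13a, a subunit of the complex that silences inflammatory mRNAs in interferon-treated human monocytic cells, had the longest coding sequence of any member at 423 codons in 13 exons. Its transcript with a CCDS identifier, a mark of a coding sequence agreed between annotation groups, encoded 203 codons in 8 exons. As annotated, Rpl13a also shares 856 exon bases with the protein-coding gene Flt3l on the same strand. Over the 86 members with a CCDS transcript, the longest coding sequence differed from the CCDS one in 6. Besides Rpl13a these were Rps19 (212 against 145 codons), Rps2 (302 against 293), Rpl31 (129 against 125), Rpl41 (46 against 25) and Rps27l (105 against 84).

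Subunit genes were compact beside other protein-coding genes. In the complete coding transcript with the longest coding sequence, the median coding length of the 77 subunit genes was 156 codons (quartiles 125 and 211), against 395 (quartiles 257 and 652) over 21598 protein-coding genes. The median 3′ untranslated length was 66 bases (quartiles 43 and 264), against 608.5 (quartiles 183 and 1513), and the 5′ one 94 bases (quartiles 61 and 152), against 134 (quartiles 57 and 264). The spliced length had a median of 794 bases, against 2372. The span, taken over all annotated transcripts of a gene, had a median of 3243 bases, against 16345. The 46 genes of the 60S and the 31 of the 40S subunit had medians of 158.5 and 151 codons, 114.5 and 84 bases of 5′ and 93.5 and 54 bases of 3′ untranslated sequence. Coding sequence took a median of 66.5% of the spliced length in subunit genes, against 60.8% over all genes. Mitochondrial ribosomal protein genes, which encode the ribosome of another compartment, had medians of 191.5 codons and 316 bases of 3′ untranslated sequence (n = 78). Translation factor genes, named Eif or Eef, had medians of 406 codons and 633 bases (n = 63). Subunit and mitochondrial genes thus differed in the 3′ untranslated median while both had a median of 5 exons. Over all 101 members with a complete coding sequence the median spliced length was 772 bases, the exon number 5, the 5′ untranslated length 77 bases and the 3′ one 58 bases. The median span of all 105 members was 2883 bases.

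The extremes were few and large. Over all transcripts, the longest spans were 25164 bases in Rpl11, which binds the p53 regulator Mdm2, 14075 in Rpl3 and 11809 in Rps15a. The coding transcript used for Rpl11 held only 833 exon and 2830 intron bases. That of Rpl3 held 1293 and 4265, and that of Rps15a 5130 and 5749. The shortest spans were those of Rps27rt at 370, Rpl36-ps3 at 384 and Rpl28-ps4 at 393. The longest 3′ untranslated sequences were in Rps15a (4722 bases), Rps20 (3167) and the paralog Rpl7l1 (1841). Among subunit genes Rpl22, with 1647, came next after Rps15a and Rps20. Its transcript Rpl22-001, with the same 128 codons, has 56. The longest 5′ untranslated sequences were in Rpl18 (2375), Rpl36al (877) and Rpl35 (538). The Rpl18 value is that of Rpl18-001. The RefSeq start of Rpl18 and its transcript Rpl18-201 lay at 45718071, against 45715457 for the first annotated base of the gene. The Rpl36al value is that of the single-exon Rpl36al-002, chosen by spliced length among equal coding lengths. The shortest 5′ untranslated sequences among subunit genes were in Rps15a (15), Rpl22 (17) and Rps28 (20). Rpl41 had 46 codons, or 25 by its CCDS transcript, and Rpl39 had 51, against 419 in Rpl4 and 403 in Rpl3. The most transcripts were 11 each in Rpl9, Rpl10 and Rpl13a. First exons were shortest in Rpl14 (25 bases), Rpl22 (29) and Rpl3 (30).

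**Figure D2:**
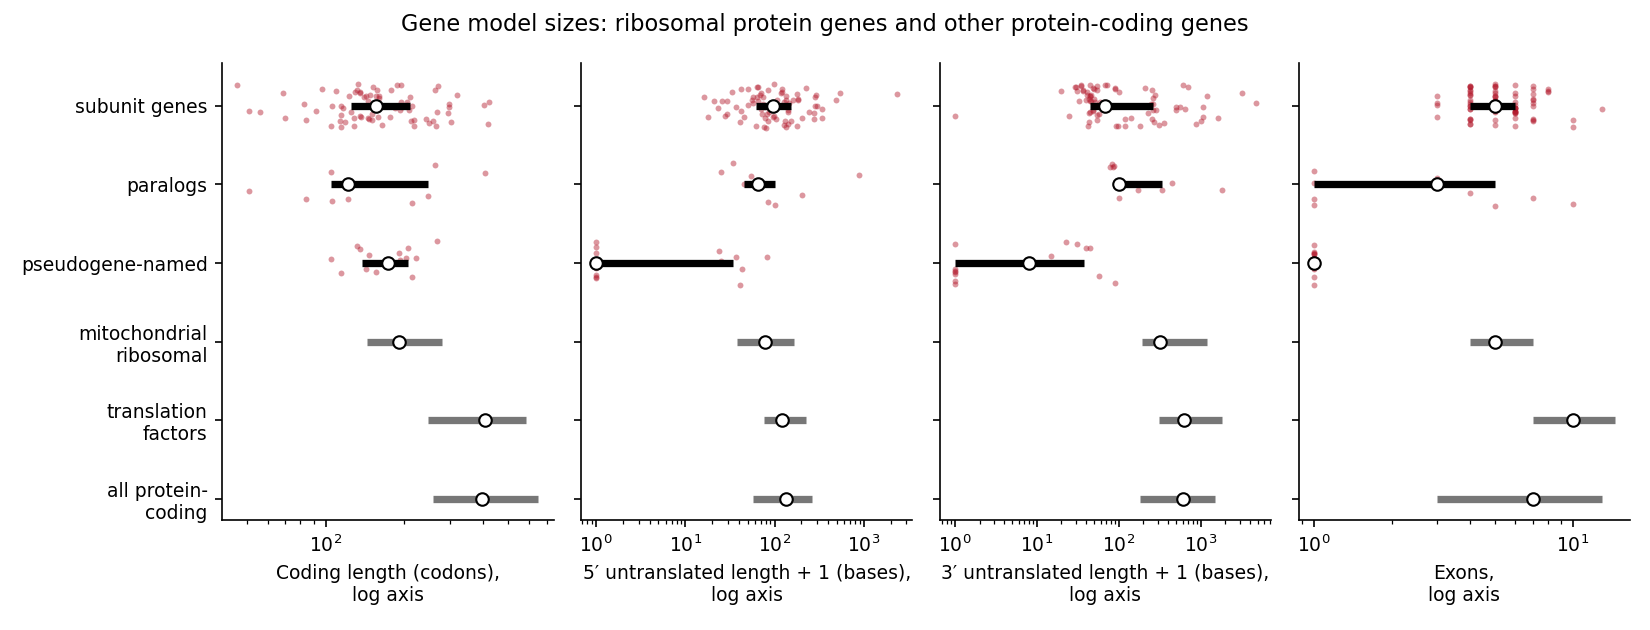
Coding length in codons, untranslated lengths in bases (plus 1) and exon number per gene, on log axes. Points are single member genes, bars span the quartiles and white circles are medians, with member classes above the other gene sets. Subunit genes have a median of 156 codons and 66 bases of 3′ untranslated sequence, against 395 codons and 608.5 bases over all protein-coding genes.

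In many subunit genes the start codon was the last codon before an exon junction. In 21 of 77 subunit genes (27.3%) exactly 3 coding bases preceded the junction, against 1.62% of 19187 protein-coding genes with a complete coding sequence and more than 1 exon. These were 13 genes of the 60S and 8 of the 40S subunit. With the paralog Rpl3l the count was 22 of the 83 members whose chosen coding transcript has more than 1 exon. Rpl3, Rpl4, Rpl5, Rpl7a, Rpl14, Rpl35 and Rpl38 are examples of the 60S subunit, and Rps15, Rps18, Rps20, Rps24 and Rps4x of the 40S subunit. In 20 of the 21 the start codon ended exon 1, and in Rpl18 it ended exon 2. None of the 78 mitochondrial ribosomal protein genes had this layout (0 of 78), and 2 of 62 translation factor genes did. With CCDS transcripts alone it was in 21 of 77 subunit genes, against 1.37% of 18040 genes.

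At most 6 coding bases preceded the junction in 29 subunit genes (37.7%), against 2.73% of all genes, and at most 30 in 42 (54.5%), against 10.8%. The start codon lay in exon 2, or in exon 1 within 30 bases of the junction, in 65 subunit genes (84.4%) and in 69 of 83 members, against 36.6% of all genes. The share was 21.8% in mitochondrial ribosomal protein genes and 41.9% in translation factor genes. Exon 2 alone held it in 27 subunit genes (35.1%), against 28.2%. Subunit genes thus stood closer to all genes in exon 2 starts than in starts near the end of exon 1. The stalk gene Rplp0 and Rpsa began in exon 2, 54 and 133 bases before the next junction.

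**Figure D3:**
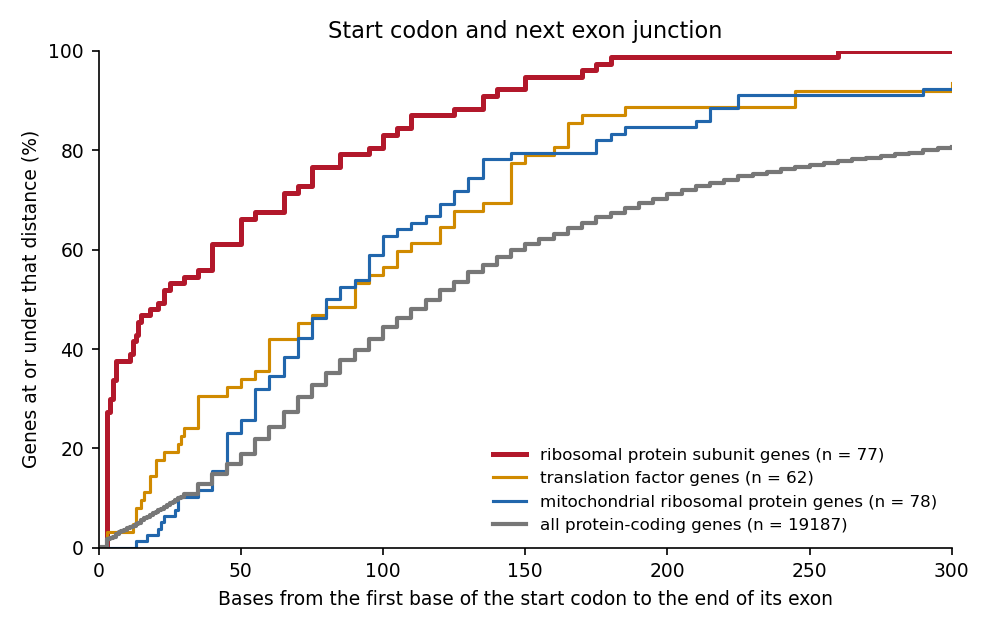
Share of genes (%) whose start codon lies at or under a given number of bases from the end of its exon, counted from the first base of the codon. The curve of the 77 subunit genes starts at 27.3% at 3 bases and reaches 54.5% at 30, against 1.82% and 10.8% for all protein-coding genes.

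Subunit genes had more annotated transcripts that keep an intron than protein-coding genes had as a whole. Retained-intron transcripts were 125 of the 364 transcripts of subunit genes (34.3%), against 18.8% of 82460 transcripts of all protein-coding genes. At least 1 such transcript was listed in 45 of 77 subunit genes (58.4%), against 33.8% of protein-coding genes with an intron. The share was 46.2% in mitochondrial ribosomal protein genes and 46.0% in translation factor genes. Subunit genes also had a median of 5 annotated transcripts, against 2 over all protein-coding genes, and the shares are not corrected for that. Rpl10 and Rpl6 had 6 retained-intron transcripts each. Transcripts annotated for nonsense-mediated decay were in 10 of 77 subunit genes, against 16.3%, and processed transcripts in 21 (27.3%), against 31%. More than 1 coding length was annotated in 22 (28.6%), against 36.3%. These shares describe what was annotated and not what macrophages contain.

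Introns of subunit genes held small nucleolar RNAs (snoRNAs), which guide ribose methylation (box C/D, named Snord) or pseudouridylation (box H/ACA, named Snora) of ribosomal RNA. A small RNA gene on the same strand, clear of every exon of the host, lay in 22 of 85 members with an intron (25.9%), against 5.87% of 19634 protein-coding genes with an intron. A snoRNA gene did so in 21 (24.7%), against 1.27%. When overlap with an exon of another host transcript was allowed, 30 members held a snoRNA gene (35.3%), against 1.41%. All 30 were subunit genes, with 20 of 46 in the 60S and 10 of 31 in the 40S subunit, and 0 of 78 mitochondrial ribosomal protein genes and 9 of 63 translation factor genes were hosts. Together the 30 genes held 58 snoRNA genes, 15.5% of the 374 that lay within protein-coding genes on the same strand. Of the 58, 21 were named Snord, 11 Snora and 26 had other names. Their lengths were 65 to 203 bases, with a median of 91.5.

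Hosts differed in number and place. Rpl4 held 5 snoRNA genes, in introns 2 to 6 in turn, all clear of its exons, among them Snord16a. Rpl13a held Snord32a, Snord33, Snord34 and Snord35a. Rpl5, Rpl7a, Rpl17, Rpl23a, Rps12 and Rpsa held 3 each, Rpsa with Snora62 in intron 4. Rps3 held Snord15a in intron 1 and Snord15b in intron 5, and Rplp2 held Snora52 in intron 3. A single snoRNA gene lay in 15 hosts. Of the 58 genes, 22 overlapped an exon of another transcript of the host. Rpl22, Rpl22l1, Rplp0, Rplp1, Rps6, Rps19 and Rps27a held none.

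**Figure D4:**
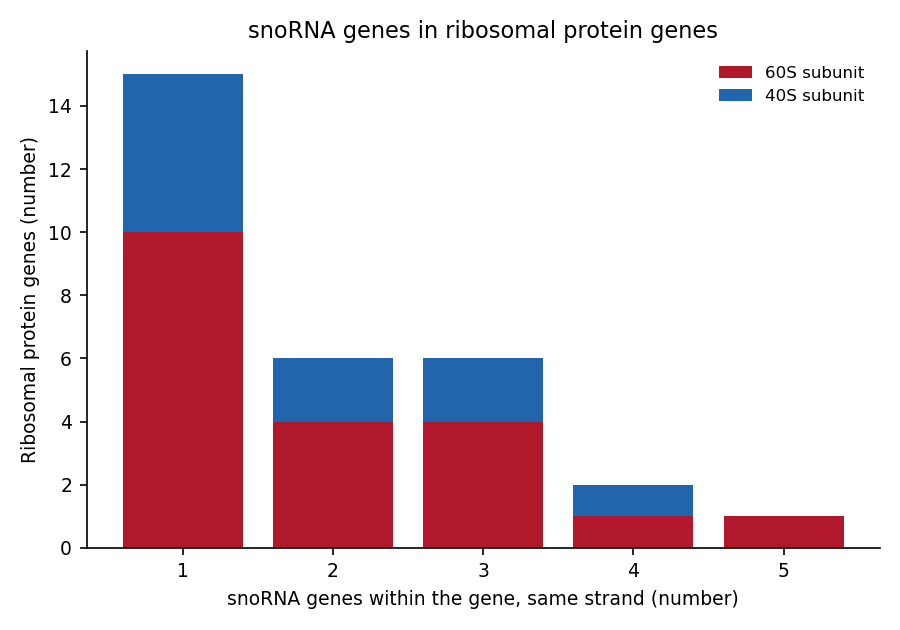
Number of member genes (vertical axis) by the number of snoRNA genes within them on the same strand (horizontal axis), for the 30 genes that hold any, with genes of the 60S subunit in red and of the 40S subunit in blue. A single snoRNA gene is held by 15 genes, 2 by 6 genes, 3 by 6, 4 by 2 and 5 by 1.

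RefSeq microRNA hairpins lay inside members, on the host's strand. Among them were Mir3091 in intron 1 of Rps21 (chromosome 2), Mir7079 in intron 5 of Rpl13 (chromosome 8) and Mir5121 in Rpl13a (chromosome 7), whose hairpin overlaps Snord33. The 5 mature sequences of these hairpins are shown in full, with capitals for the seed (bases 2 to 8), which selects target mRNAs. The 5 seeds all differed.
miR-3091-5p: cAUGGGUCugguugggcccgc
miR-3091-3p: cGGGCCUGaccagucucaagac
miR-7079-5p: aGGGCUGAggcagugaguccug
miR-7079-3p: uGACUUCUguucucuuuccag
miR-5121: aGCUUGUGaugagacaucucc

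The paralogs fell into spliced copies and single-exon copies. Rpl3l, a form known from heart and skeletal muscle, had 10 exons as its parent Rpl3, and 407 codons against 403. Rpl7l1 had 7 exons as Rpl7, and 246 codons against 270. Rps27l, known as a p53 target, matched Rps27 in exons (4) and codons (84) by its CCDS transcript. Rpl39l, known from testis, had 3 exons and 51 codons as Rpl39, and its coding sequence lay in exon 3, whereas Rpl39 starts in exon 1. The copies described by a single exon were Rpl10l, Rpl36al, Rps4l and Rps27rt, and in Rpl36al another transcript has an intron. Rpl10l, known from testis, had 214 codons as its parent Rpl10, and Rpl36al had 106 as Rpl36a. Rps4l had 262 codons against 263 in Rps4x, and the RefSeq gene table lists it as a transcribed pseudogene. The 4 X-linked subunit genes Rpl10, Rpl36a, Rpl39 and Rps4x each had an autosomal paralog among the members, 3 of them single-exon copies.

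The 18 pseudogene-named models are protein-coding in the deposited annotation, whereas the RefSeq gene table lists all 18 as pseudogenes, at overlapping positions. All but 1 had a single exon, against several in every parent gene, and 17 came from Ensembl's automatic source alone. Single-exon genes were 20 of the 105 members and 0 of the 77 subunit genes, against 11.4% of protein-coding genes. A complete coding sequence was annotated in 14 of the 18, and in 9 of these it had exactly the codon number of the parent's CCDS transcript, which is the parent length used for all copies here. These were Rpl10-ps3 (214 codons), Rpl13a-ps1 (203), Rpl23a-ps3 (156), Rpl27-ps3 (136), Rpl36-ps3 (105), Rpl7a-ps8 (266), Rpl9-ps6 (192), Rps12-ps3 (132) and Rps26-ps1 (115). The longest coding sequence of Rpl13a, at 423 codons, is not matched by Rpl13a-ps1. The other 5 were shorter than the parent's CCDS length. Rpl9-ps1 lacked 1 codon, Rpl13-ps3 4, Rps18-ps3 9, Rpl21-ps4 14 and Rps2-ps6 72 against the 293 codons of the CCDS transcript of Rps2, whose longest coding sequence has 302.

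The 4 models without a complete coding sequence were Rpl7a-ps3, Rpl7a-ps5, Rpl36-ps4 and Rpl28-ps4. The first 3 had no start codon line, and Rpl28-ps4 had neither a start nor a stop codon line. In 7 of the 14 complete models the coding sequence filled the model with no untranslated bases on either side. A transcript of Rpl9-ps1 carries the biotype translated processed pseudogene, 1 of 12 such transcripts among protein-coding genes. All but Rpl36-ps4 lay on another chromosome than their parent. Reads that match a copy and its parent equally cannot be assigned from sequence alone, and the sources used here do not say how the authors assigned them.

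**Figure D5:**
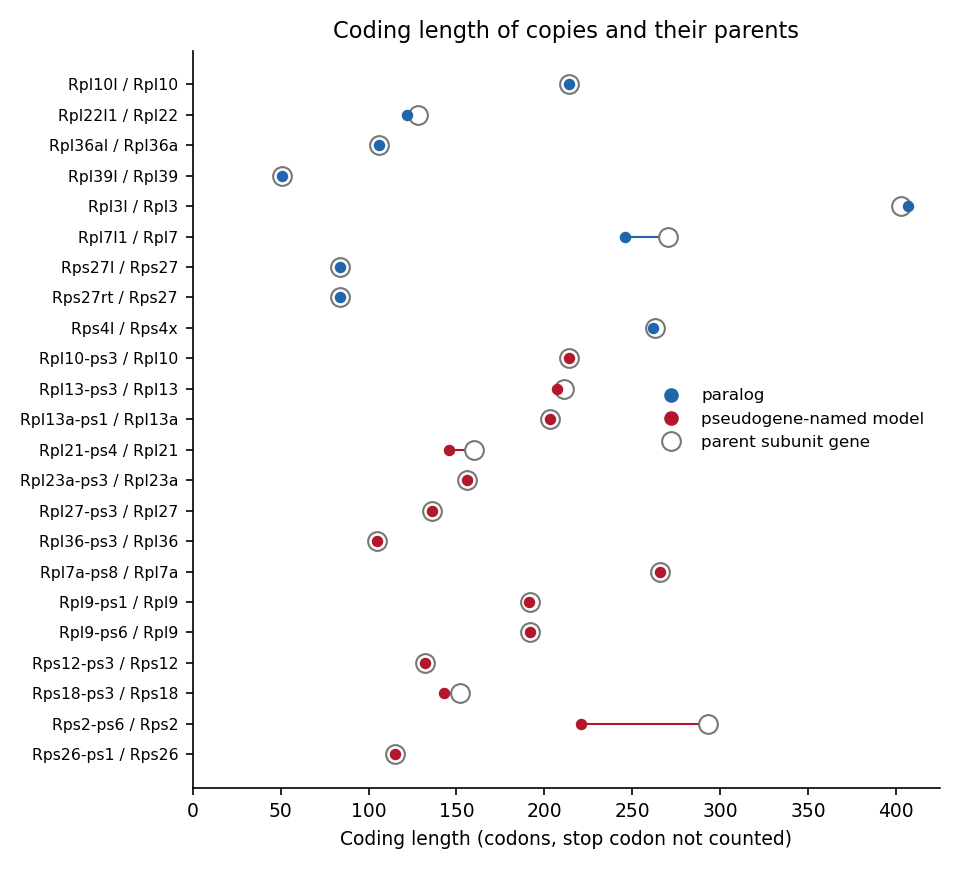
Coding length in codons of the 9 paralogs (blue) and the 14 pseudogene-named models with a complete coding sequence (red), each joined to its parent subunit gene drawn at its CCDS length (open circles). Filled points inside an open circle have the parent's length or nearly so, as in 9 of the 14 red models with the exact codon number, and Rps2-ps6 differs most at 221 codons against 293.

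Exons were shared with another gene model on the same strand in 22 of 105 members (21.0%), against 13.3% of protein-coding genes. In 16 of the 22 the partners were all small RNA models over transcripts of the host, such as Snora70 over 137 bases of Rpl10. The 6 others were Rpl13a, Rpl19, Rpl24, Rps27rt, Rps3a1 and Rps4l. Rpl13a shared 856 bases with Flt3l, the gene of the dendritic cell growth factor Flt3 ligand, and 1133 of its 3034 exon bases with all partners. Rpl24 shared 484 bases with the processed transcript gene Gm28037 and Rpl19 36 with Gm11629. Over 50% of the exon bases were shared in 3 members (2.86%), against 7.42%. In those 3 the partner was a model added to the Ensembl set under another name: Rps3a over 943 of the 977 exon bases of Rps3a1, Rps4y2 over 941 of 943 in Rps4l, and Gm9846 over 369 of 370 in Rps27rt. Reads of these 3 genes would fall in both models.

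Exons of a gene on the opposite strand covered part of 21 of 105 members, against 22% of protein-coding genes. Fam69a lay over 953 bases of Rpl5, Wdr38 over 821 of Rpl35 and Tlcd1 over 506 of Rpl23a. Clhc1 lay over 160 bases of Rps27a. The labels do not say whether the libraries keep strand, and without strand such reads cannot be told apart. A protein-coding gene on the other strand began within 1000 bases upstream in 9 members (8.57%), against 6.87%. The closest pairs were Rps28 with Ndufa7, a gene of respiratory complex I, at 29 bases, Rps27 with Rab13 at 44, and Rpl9 with Lias at 53.

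The other genes of the pathway were read from a list chosen with earlier results known. Fau had a RefSeq run of 13 pyrimidines at its start and Gnb2l1 one of 10, with 133 and 317 codons. Of 17 further genes known for TOP mRNAs, such as elongation factors and Pabpc1, 11 had a RefSeq start. A run of at least 5 bases beginning with C stood in 2 of these 11, against 3.01% of the promoter table. These were Eif3f with 11 bases and Nap1l1 with 7. The start codon ended exon 1 in 1 of the 17, Eef2, the factor that moves the ribosome along the mRNA. Over all protein-coding genes with more than 1 exon, 1.62% had the start codon directly before a junction. A snoRNA gene lay within 4 of the 17, against 1.41% of protein-coding genes with an intron. Eef1b2 held 3, and Eef2, Tpt1 and Nap1l1 held 1 each. Gnb2l1 held 3.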

How the data were processed

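The file used here was deposited by the authors as a gene annotation with 1544831 lines. Its numeric columns are start and end positions of gene model features in build mm10, of no other unit, and 0 columns hold values per sample. Per the submitters' processing notes, the tools include TopHat2 2.1.1 and the build is mm10. The sources used here do not give the steps by which the annotation was made. The members and lists were chosen with earlier results of these data known.

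Models were read with Python 3.11.15, pandas 2.3.3, numpy 2.4.6 and scipy 1.17.1, and figures drawn with matplotlib 3.10.9. Ensembl models are those of source ensembl, havana, ensembl_havana, insdc or mirbase, and the rest are called added models. Each gene was described by its complete coding transcript, with start and stop codon lines, that has the longest coding sequence. Equal coding lengths were settled by the longest spliced length, then by transcript ID. Only 1 coding length was annotated in 55 of the 77 subunit genes. Where such a gene has several complete coding transcripts, the tie rule sets its untranslated lengths. Copies were compared with their parents by CCDS transcripts where there are any. Codons exclude the stop. Spans and transcript numbers take in all annotated transcripts of a gene, coding or not. Shared exons need an overlap of at least 1 base. Motifs and start windows come from a RefSeq promoter table of GRCm38.p6, 1 value per gene over its listed starts. All 105 IDs had the same symbol in a table of gene names. Code was tested on simulated gene models. Genes named were Rpl22, stalk genes, paralogs with parents, pseudogene-named models, members with known further roles and the highest and lowest 3 per feature. Others were chosen after their values were seen. Gene models are not replicates, so no p-value is given. A few genes are not reported here by name. The planned fits of LPS against untreated libraries were not run.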

Additional observations from a re-analysis of the deposited data

How the results depend on the processing

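Of 38 alternative values, 33 stayed within 1.5 times the reported count or within the 95% binomial order-statistic interval of the reported median, and 5 moved. Among those that stayed, the median 3′ untranslated length was 66 to 87 bases under the alternatives, all above the reported 58, and the spliced one 714 to 837, around the reported 772. The number of members, 105, was 68 without models that come from the automatic source alone. The 22 members with shared exon bases became 3 when over 50% of the bases had to be shared and 37 when either strand counted. The 14 members with a pyrimidine run became 30 with a start up to 5 bases away and 8 at starts of annotated coding transcripts. The last of these, the CCDS transcripts, the joint snoRNA and exon overlap setting and every alternative for start codons directly before a junction were chosen after seeing the data. The count of start codons directly before a junction was 22 under every transcript choice tried. No paired analysis was possible because the file used here holds no value per sample. The replicate block, DESeq2, leave-one-out and unfiltered fits of LPS against untreated libraries were not run for the same reason, and what depth limits is unknown.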

Other observations

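Members were spread over the genome with few close pairs. Their share of protein-coding genes was highest on chromosome 17, with 10 members (0.946%), followed by chromosome 15 (0.764%) and chromosome 7 with 15 members (0.745%), against 0.474% over all chromosomes. This order counts paralogs and pseudogene-named models too. Subunit genes were 6 of 1057 protein-coding genes on chromosome 17, 4 of 785 on chromosome 15 and 14 of 2013 on chromosome 7. By subunit genes alone the share was highest on chromosome 7. Chromosome 13 held 1 (0.118%). Some members lay within 50000 bases of each other. Rps2 and Rpl3l on chromosome 17 were 5890 bases apart, and Rps29 and Rpl36al on chromosome 12 were 23544 bases apart, each with 1 protein-coding gene between.

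Subunit genes also lent their names to 239 models of a pseudogene biotype, beside the 18 protein-coding ones. At least 1 such model was named for 54 of the 77 subunit genes, with 22 for Rpl31, 20 for Rps12 and 14 for Rps19. Rpl22 had 1, and Rps3, Rplp2 and Rpl41 had 0.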
